A study of Mus musculus with 6 samples.

Results

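The genes described here are 42 mitosis and G2/M genes, which encode the cyclins and kinases that drive cells into mitosis and the proteins that build the spindle, hold the chromosomes and divide the cell. They were chosen as mitotic kinases, spindle and kinetochore genes known to be repressed by the p53-p21-DREAM pathway, and each symbol was matched to its mouse Ensembl identifier. All 42 were found among the 38293 genes in the gene counts, and all 42 passed the expression filter.

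RNA-seq was performed on sorted Lin-cKit+ fetal liver (FL) cells from embryos at embryonic day 14.5. The 3 wt embryos are labelled wild-type for *Hnrnpl*, while the study describes these controls as floxed (L fl/fl), and the 3 hnRNP L deficient embryos were VavCre+ hnRNP L fl/fl, in which Cre recombinase under the Vav promoter deletes the floxed gene in hematopoietic cells. The sort takes cells that carry c-Kit and lack surface markers of mature lineages, among which are hematopoietic stem cells and progenitors. All embryos were of the C57BL/6 strain, and each library is 1 embryo. The labels give the source as fetal liver cells but the tissue as whole embryo, and the sorted population comes from the study's methods, in which the lineage cocktail for FL cells held no antibody against CD11b. hnRNP L is an RNA-binding protein that regulates splicing, and the comparison asks how its loss changes expression in these cells.

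During an unperturbed cell cycle, the MuvB core recruits B-MYB (gene *Mybl2*) and FOXM1 to mitotic promoters, and their genes are transcribed in G2 and mitosis. When p53 is activated, it induces p21 (*Cdkn1a*), which inhibits cyclin-dependent kinases and leaves the pocket proteins p107 and p130 hypophosphorylated. These proteins join E2F4 and the same MuvB core to form DREAM, a repressor that binds the cell cycle genes homology region (CHR) of mitotic promoters, often near CCAAT boxes bound by NF-Y.

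The *Hnrnpl* gene was at 552, 531 and 528 CPM in the wt embryos and at 242, 288 and 269.5 CPM in the hnRNP L deficient embryos, where CPM are counts scaled to the normalized library size and values are listed from replicate 1 to replicate 3, here and throughout. It fell by 1.01 on the log2 scale (SE 0.09), and no hnRNP L deficient library overlapped the wt libraries. *Trp53*, which encodes p53, was at 314, 289 and 338 CPM in wt and 366, 339.9 and 335 CPM in hnRNP L deficient cells, and was not called (adjusted p = 0.262). *Cdkn1a* was at 2.20, 6.47 and 2.75 CPM in wt and 57.0, 75.2 and 85.9 CPM in hnRNP L deficient cells and rose by 4.26 on the log2 scale (SE 0.47, adjusted p = 0.0125). The transcript of the CDK inhibitor that acts upstream of DREAM was high in every hnRNP L deficient library and low in every wt library.

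Reads on genes ranged from 55952160 to 76157226 per library. Of 8 progenitor markers, 3 fell in hnRNP L deficient cells (*Kit*, *Cd34* and *Flt3*), and their summed level was 1037 to 1531 CPM in wt and 841 to 946 CPM in hnRNP L deficient cells. The sum of 8 granulocyte and monocyte markers was 595 to 8059.9 CPM in wt and 244 to 808 CPM in hnRNP L deficient cells (1 of 8 fell), and wt replicate 2 held the highest value. Hepatocyte markers summed to 118 to 242 CPM in wt and 25.5 to 76.7 CPM in hnRNP L deficient cells (2 of 7 fell). Erythroid markers summed to 2089.6 to 2548 CPM in wt and 2159.7 to 2631 CPM in hnRNP L deficient cells (1 of 8 fell). Megakaryocyte markers summed to 50.4 to 84.8 CPM in wt and 49.7 to 73.7 CPM in hnRNP L deficient cells (0 of 5 called). Mast cell markers summed to 20.4 to 82.2 CPM in wt and 12.4 to 44.0 CPM in hnRNP L deficient cells (3 of 4 tested, 0 called). Of 6 lymphoid markers 3 were tested and 2 fell (*Rag1* and *Il7r*), and 4 of the 6 were at 0 in at least 1 library. Of all genes tested, 9.32% rose and 9.85% fell, and these short marker lists were not tested against those shares. The part of these cells in the results below was not tested. In bulk RNA, fewer cells of a type and less RNA per cell cannot be told apart.

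The promoters are shown first because a CHR is the feature by which DREAM recognizes genes of this kind. RefSeq promoter windows of 300 bases, from 250 before the transcription start on GRCm38.p6, were matched to 35 of the 42 genes. *Kif20a*, *Incenp*, *Aurkb*, *Foxm1*, *Cdc25c*, *Ccna2* and *Tpx2* were not matched. The CHR was searched as TTTGAA or TTCGAA and the CCAAT box as CCAAT, on both strands, so that TTCAAA and ATTGG are the same letters on the other strand. A CHR was present in 25 of the 35 genes (71.4%), against 21.7% of 27025 genes with a window and 16.3% of the 10318 genes with a window that were tested in the counts. CHR and CCAAT box occurred together in 22 of the 35 (62.9%), against 8.61% of all genes with a window. The 42 genes were chosen as genes repressed through DREAM, so a high share with a CHR is not independent of that choice. A match of letters is a description and not a measured binding site.

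Stretches from 7 genes that rose or fell in the comparison that follows and that hold a CHR are given in the direction of transcription, with CHR and CCAAT letters in capitals. The genes encode cyclin B2, the phosphatase CDC25B, the kinetochore protein CENP-F, the spindle motor Eg5, the cytokinesis regulator ECT2, the anaphase activator CDC20 and the checkpoint protein BUB3.
Ccnb2 (chr9:70421521-70421598, - strand): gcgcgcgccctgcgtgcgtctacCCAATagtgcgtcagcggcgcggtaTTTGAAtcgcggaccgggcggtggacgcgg
Cdc25b (chr2:131186907-131186984, + strand): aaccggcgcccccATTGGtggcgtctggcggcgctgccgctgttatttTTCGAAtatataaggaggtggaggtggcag
Cenpf (chr1:189688055-189688132, - strand): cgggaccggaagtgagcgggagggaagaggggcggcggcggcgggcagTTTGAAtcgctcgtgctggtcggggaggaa
Kif11 (chr19:37376315-37376392, + strand): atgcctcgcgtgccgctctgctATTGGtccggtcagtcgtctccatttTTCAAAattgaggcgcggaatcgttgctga
Ect2 (chr3:27153810-27153887, - strand): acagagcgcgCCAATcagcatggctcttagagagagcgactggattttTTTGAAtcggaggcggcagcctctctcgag
Cdc20 (chr4:118437332-118437409, - strand): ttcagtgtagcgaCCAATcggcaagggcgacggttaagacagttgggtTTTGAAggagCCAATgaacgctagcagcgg
Bub3 (chr7:131560279-131560356, + strand): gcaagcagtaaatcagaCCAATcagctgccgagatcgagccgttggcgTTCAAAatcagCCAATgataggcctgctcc
The first 5 of these genes fell and the last 2 rose, so the same letters stood in promoters of genes that moved in opposite directions. In *Cdc20* and *Bub3* the CHR lies between a pair of CCAAT boxes. A CHR between CCAAT boxes was also present in *Cdk1* and *Top2a*, which were not called and had negative log2 fold changes.

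The 2 genes with the largest changes, *Gtse1* and *Nusap1*, had no match in their windows to the CHR letters searched. Their whole windows are given for that reason, with CCAAT letters in capitals. Variants of the CHR other than TTTGAA and TTCGAA were not searched, so these windows may hold one.
Gtse1 (chr15:85859457-85859756, + strand): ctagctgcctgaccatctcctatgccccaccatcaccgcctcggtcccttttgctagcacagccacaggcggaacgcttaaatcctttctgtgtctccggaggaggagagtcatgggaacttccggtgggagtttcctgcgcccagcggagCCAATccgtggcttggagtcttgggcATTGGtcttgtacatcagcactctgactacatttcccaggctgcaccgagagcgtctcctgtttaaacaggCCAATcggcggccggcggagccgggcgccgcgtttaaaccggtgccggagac
Nusap1 (chr2:119618048-119618347, + strand): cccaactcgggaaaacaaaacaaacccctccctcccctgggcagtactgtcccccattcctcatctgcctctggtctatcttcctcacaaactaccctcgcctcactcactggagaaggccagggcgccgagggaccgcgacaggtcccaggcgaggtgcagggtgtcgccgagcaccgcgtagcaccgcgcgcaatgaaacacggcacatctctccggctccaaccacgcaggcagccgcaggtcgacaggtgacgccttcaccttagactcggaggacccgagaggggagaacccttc
*Gtse1* has 3 CCAAT boxes in this window and *Nusap1* has none. *Gtse1* has a second window from a start further downstream, and that window holds the letters of a p53 half-site from 9 to 18 bases after the start, counting the start as 0. The stretch around it is shown with the half-site in capitals.
Gtse1 (chr15:85859907-85859988, + strand): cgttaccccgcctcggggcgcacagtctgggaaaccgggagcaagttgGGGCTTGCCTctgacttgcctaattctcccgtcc
The half-site letters were present in 4 of the 35 genes (11.4%), against 9.55% of all genes with a window.

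**Figure D1:**
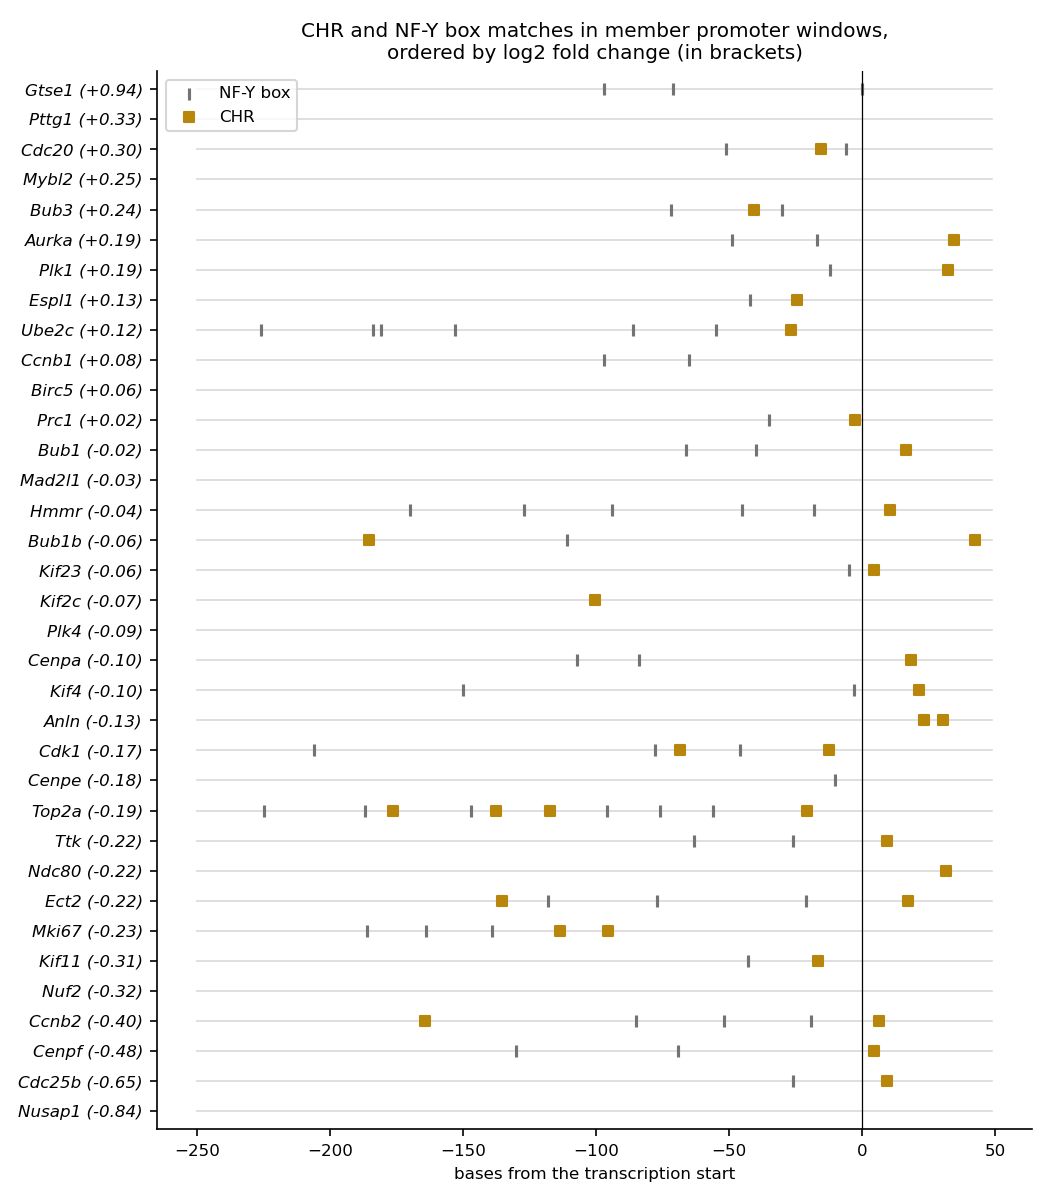
Matches to the CHR (squares) and to the NF-Y box, which is the CCAAT box (ticks), in the first promoter window of each of 35 genes, plotted by distance in bases from the transcription start and ordered by log2 fold change, from the largest rise at the top to the largest fall at the bottom. Of the 35 genes, 25 have a CHR, and genes with and without one are found at both ends of the order.

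The share of genes with a CHR was 2 of 3 among those that rose, 5 of 7 among those that fell and 18 of 25 among those not called. The median log2 fold change was -0.10 over the 25 genes with a CHR and 0.01 over the 10 without.

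Across the 42 genes, 3 rose and 7 fell in hnRNP L deficient cells, and 32 were not called. *Gtse1*, *Cdc20* and *Bub3* rose, and *Nusap1*, *Cdc25b*, *Cenpf*, *Ccnb2*, *Nuf2*, *Kif11* and *Ect2* fell. A gene was called at an adjusted p under 0.05 in edgeR's quasi-likelihood test, adjusted over all 14396 genes tested. The 10 called genes are 23.8% of the 42, near the 19.2% called among all genes tested. By direction, the 3 that rose are 7.14% against 9.32% of all genes, and the 7 that fell are 16.7% against 9.85%. None of the 42 was both called and over 2-fold changed, against 6.72% of all genes (by DESeq2, all calls of these genes were also under 2-fold).

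The calls depended on which libraries entered the fit. Without wt replicate 1, 5 of the 42 rose and 8 fell, and without wt replicate 2, 4 rose and 10 fell, with all 10 of the called genes among them both times. Of all genes, 32.4% and 24.1% were called in these fits, against 19.2% with all 6 libraries. Without wt replicate 3, or without any 1 of the 3 hnRNP L deficient replicates, none of the 42 was called by edgeR, while 15, 12, 11 and 10 of them had an unadjusted p under 0.05 on leaving out wt replicate 3 and hnRNP L deficient replicates 1, 2 and 3. Over all genes, the same 4 fits called 5 to 15 that rose and 0 to 2 that fell. With all 6 libraries DESeq2 called 14 of the 42 (6 rose, 8 fell), all 10 among them, and *Pttg1*, *Mybl2*, *Aurka* and *Ndc80* in addition. DESeq2 also called more of all genes (29.9%). When libraries were scaled by total counts, 1 rose and 11 fell, and 8 of the 10 were among them. Over all genes, 1066 rose and 1751 fell with that scaling (19.6% called).

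Changes in these genes were small and precisely measured. The median log2 fold change was -0.07 over the 42 genes and -0.03 over all genes tested, and the median size of the change was 0.17 against 0.30. The median SE was 0.08 on the log2 scale, against 0.16 over all genes tested. In 40 of the 42 genes (95.2%) the 95% interval of the fold change lay within 2-fold in either direction, against 62.6% of all genes, and the exceptions were *Gtse1* and *Nusap1*. In 34 genes the interval lay within 0.5 on the log2 scale. All 42 genes had group means of 19.0 CPM or more, while all genes tested include genes at lower levels. These comparisons with all genes were not matched for level. The 3 hnRNP L deficient libraries did not overlap the 3 wt libraries in 19 genes (6 higher and 13 lower in hnRNP L deficient cells), which is 45.2% against 45.5% of all genes. By direction, 14.3% were higher and 31.0% lower, against 22.7% each way over all genes. An unadjusted p under 0.05 was reached by 17 of the 42 (40.5%), against 37.6% of all genes.

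**Figure D2:**
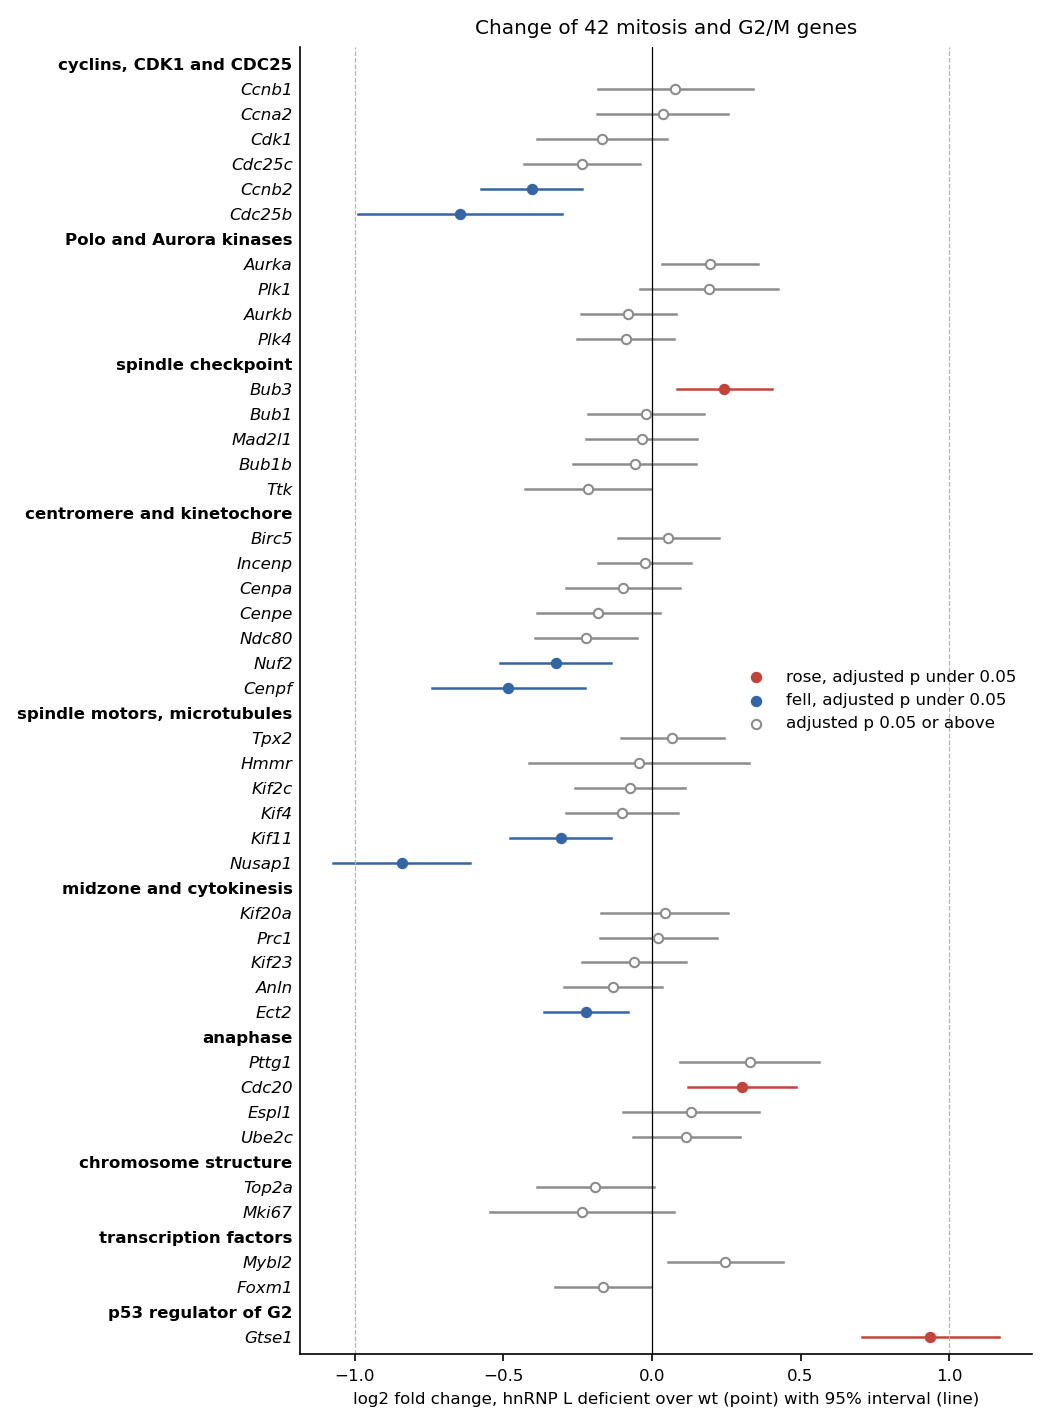
Log2 fold change of hnRNP L deficient over wt (points) with its 95% interval (lines) for the 42 genes, grouped by role, with dashed lines at 2-fold. Filled points are genes with an adjusted p under 0.05, 3 above 0 and 7 below 0, and the intervals of *Gtse1* and *Nusap1* alone reach past 2-fold.

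The summed level of the 42 genes was 9411, 8196 and 8939.8 CPM in wt and 8474, 8300.3 and 8401 CPM in hnRNP L deficient cells, so the groups overlapped. As a share of all reads on genes, without scaling for composition, they took 0.934%, 0.854% and 0.929% in wt and 0.817%, 0.816% and 0.824% in hnRNP L deficient cells, which did not overlap. Wt replicate 2 was the lowest of the wt libraries for 25 of the 42 genes, and wt replicate 1 was the highest for 26. The wt libraries varied more than the hnRNP L deficient libraries, with a median coefficient of variation of 8.14% against 3.16%, and 37 of the 42 genes varied more in wt. Over all genes tested, these medians were 16.2% and 6.53%, and 81.7% of genes varied more in wt. This comparison was not matched for level either.

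**Figure D3:**
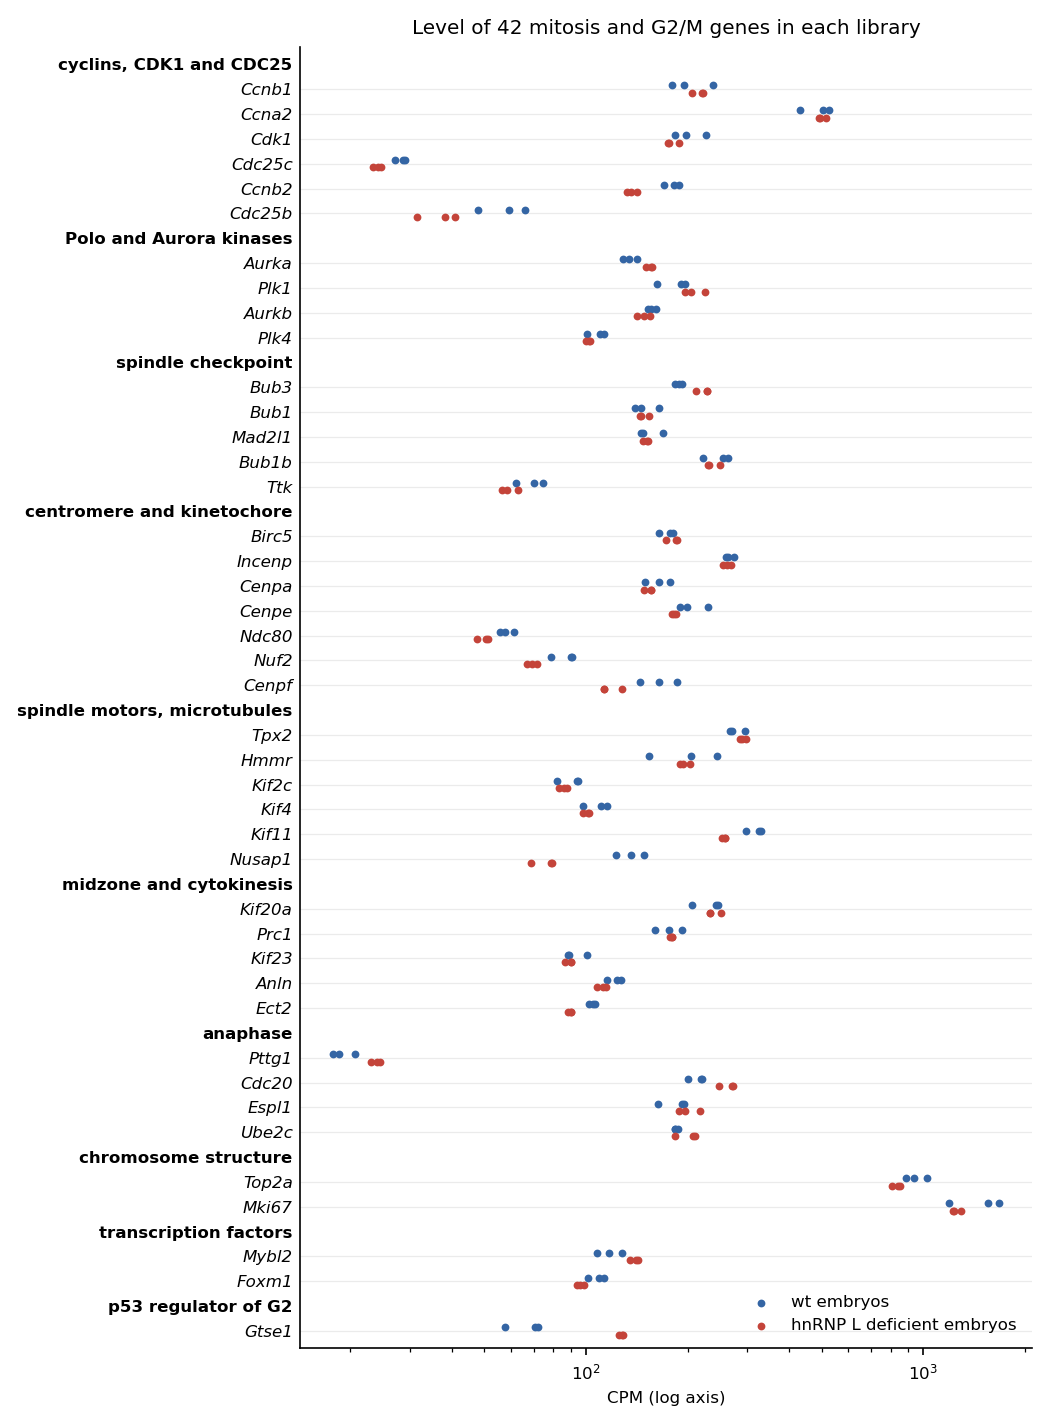
Level of each of the 42 genes in CPM (log axis) in the 3 wt and the 3 hnRNP L deficient libraries, 1 point per embryo, grouped by role. For most genes the points of both groups lie close together, with *Gtse1* set higher and *Nusap1* set lower in hnRNP L deficient embryos.

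*Gtse1* (ENSMUSG00000022385, chr15:85859745-85876573, + strand on GRCm38) encodes a microtubule-binding protein of G2 and mitosis that binds p53 and carries it out of the nucleus, and its transcript is itself induced by p53. It was at 72.0, 57.3 and 70.4 CPM in wt and 129, 125 and 128 CPM in hnRNP L deficient cells, or 66.6 ± 8.05 against 127 ± 1.89 CPM (SD, n = 3). Each hnRNP L deficient library was above all wt libraries. The rise was 0.94 on the log2 scale (95% interval 0.70 to 1.17, adjusted p = 0.00985), the largest rise of the 42 genes.

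*Nusap1* (ENSMUSG00000027306, chr2:119618298-119651244, + strand on GRCm38) encodes a protein that bundles microtubules at the chromosomes. It was at 123, 148 and 136 CPM in wt and 68.8, 78.9 and 79.1 CPM in hnRNP L deficient cells, or 136 ± 12.9 against 75.6 ± 5.91 CPM (SD, n = 3). It fell by 0.84 on the log2 scale (95% interval -1.07 to -0.61, adjusted p = 0.0102), with all hnRNP L deficient libraries below all wt libraries. Its exons overlap those of *Oip5* on the other strand, and since the strand option of the counting was not given in the sources used here, reads of both genes cannot be told apart there. Such overlaps are present in 10 of the 42 genes, of which *Nusap1*, *Cdc25b* and *Cdc20* were called.

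Among the cyclins, CDK1 and the CDC25 phosphatases that open the way into mitosis, 2 of 6 genes fell and none rose. Over all genes 9.32% rose and 9.85% fell, and for groups this small, here and below, a difference from these shares was not tested. *Ccnb2*, which encodes cyclin B2, was at 170.0, 189 and 183 CPM in wt and 132, 142 and 136 CPM in hnRNP L deficient cells. The groups did not overlap, and it fell by 0.40 on the log2 scale (SE 0.07, adjusted p = 0.0177). *Cdc25b*, whose product removes inhibitory phosphates from CDK1, was at 47.9, 66.0 and 59.1 CPM in wt and 31.6, 40.9 and 38.1 CPM in hnRNP L deficient cells. It too was without overlap, and it fell by 0.65 on the log2 scale (SE 0.15, adjusted p = 0.0281).

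*Ccnb1*, the major mitotic cyclin and partner of CDK1, was at 238, 180.2 and 196 CPM in wt and 222, 207 and 220.0 CPM in hnRNP L deficient cells. The hnRNP L deficient values lay inside the wt range, with a log2 fold change of 0.08 (95% interval -0.18 to 0.34). *Cdk1* was at 197, 226 and 184 CPM in wt and 176, 176 and 189 CPM in hnRNP L deficient cells, with overlap and a log2 fold change of -0.17 (95% interval -0.39 to 0.05). *Ccna2* had a log2 fold change of 0.04, which turned to -0.033 when libraries were scaled by total counts and to -0.042 without wt replicate 2. *Cdc25c* was lower in every hnRNP L deficient library (24.6, 23.3 and 24.1 CPM) than in every wt library (28.6, 29.1 and 27.1 CPM), but its adjusted p was 0.0853.

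None of the 4 Polo and Aurora kinase genes was called by edgeR with all 6 libraries. At an unadjusted p under 0.05 there was 1 of them, *Aurka*, and DESeq2 called *Aurka* as well (adjusted p = 0.0456). *Aurka*, whose product matures centrosomes, was at 142, 134 and 129 CPM in wt and 156, 150.1 and 157 CPM in hnRNP L deficient cells, with no overlap and a log2 fold change of 0.19 (adjusted p = 0.0854). Without wt replicate 1 it was called (0.24, adjusted p = 0.0305), in a fit that called 32.4% of all genes, but not on leaving out any other library. *Plk1*, the kinase that acts from mitotic entry to cytokinesis, was at 197, 162 and 191 CPM in wt and 226, 197 and 205 CPM in hnRNP L deficient cells, with overlap and a log2 fold change of 0.19 (95% interval -0.04 to 0.42). *Aurkb*, the kinase of the chromosomal passenger complex, and *Plk4*, which controls centriole duplication, had log2 fold changes of -0.08 and -0.09, and their libraries overlapped.

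Of 5 spindle checkpoint genes, which delay anaphase until chromosomes are attached, 1 rose. *Bub3* was at 193, 183 and 188 CPM in wt and 229, 212 and 228 CPM in hnRNP L deficient cells, without overlap, and rose by 0.24 on the log2 scale (SE 0.07, adjusted p = 0.0467). Its partner kinase genes *Bub1* and *Bub1b* had log2 fold changes of -0.02 and -0.06, and *Mad2l1*, which encodes the inhibitor MAD2, had -0.03. The sign for *Bub1* turned with limma voom (0.0088) and without the expression filter (0.0046), and that for *Mad2l1* turned with limma voom (0.010). *Ttk*, the kinase MPS1, ranged from 61.9 to 74.3 CPM in wt and from 56.4 to 62.9 CPM in hnRNP L deficient cells (adjusted p = 0.128).

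Of 7 centromere, kinetochore and passenger complex genes, 2 fell. *Cenpf*, a large kinetochore protein used as a marker of G2, was at 186, 144 and 165 CPM in wt and 128, 113 and 113 CPM in hnRNP L deficient cells, and fell by 0.48 on the log2 scale (SE 0.11, adjusted p = 0.0284). *Nuf2*, a subunit of the NDC80 complex that holds microtubules, was at 90.9, 90.0 and 78.6 CPM in wt and 71.3, 66.8 and 69.2 CPM in hnRNP L deficient cells, and fell by 0.32 (SE 0.08, adjusted p = 0.0338). Neither gene overlapped between the groups. *Ndc80*, which encodes the partner subunit, was at 57.5, 61.2 and 55.5 CPM in wt and 47.7, 50.6 and 51.0 CPM in hnRNP L deficient cells, without overlap, but was not called (adjusted p = 0.0702, and 0.0496 by DESeq2). The kinesin gene *Cenpe* (-0.18), the centromeric histone gene *Cenpa* (-0.10) and the passenger genes *Incenp* (-0.02) and *Birc5* (0.06, and -0.02 when scaled by total counts) had small log2 fold changes that were not called.

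Of 6 genes of spindle motors and microtubule proteins, *Nusap1* and *Kif11* fell and 4 were not called. *Kif11*, the motor Eg5 that pushes spindle poles apart, was at 329.6, 299 and 326 CPM in wt and 259, 254 and 259 CPM in hnRNP L deficient cells. The hnRNP L deficient libraries were nearly identical and all below wt, and it fell by 0.31 on the log2 scale (SE 0.07, adjusted p = 0.0305). *Tpx2*, the activator of Aurora A, had a log2 fold change of 0.07, which was -0.0016 when scaled by total counts. *Kif4*, *Kif2c* and *Hmmr*, which encode a chromosome-bound kinesin, a microtubule depolymerase and a spindle protein, had -0.10, -0.07 and -0.04. *Hmmr* was the least precise of the 42 (SE 0.16), and it ranged from 154 to 244 CPM among wt embryos.

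In the midzone and cytokinesis group, 1 of 5 genes fell. *Ect2*, which activates RhoA at the cell equator, was at 107, 102 and 105 CPM in wt and 90.0, 90.1 and 88.7 CPM in hnRNP L deficient cells, without overlap, and fell by 0.22 on the log2 scale (SE 0.06, adjusted p = 0.043). *Kif23*, a subunit of centralspindlin, had a log2 fold change of -0.06, and *Anln*, the contractile ring protein anillin, had -0.13. *Kif20a*, a midzone kinesin, and *Prc1*, which bundles midzone microtubules, had 0.04 and 0.02, and both were negative when scaled by total counts (-0.03 and -0.05).

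All 4 genes of anaphase and the anaphase-promoting complex had positive log2 fold changes, and 1 of them rose. *Cdc20*, the activator of that complex, was at 221, 201 and 220.0 CPM in wt and 270.4, 248 and 273 CPM in hnRNP L deficient cells, without overlap, and rose by 0.30 on the log2 scale (SE 0.08, adjusted p = 0.0369). *Pttg1*, which encodes securin, the inhibitor that anaphase destroys, was at 17.8, 20.6 and 18.6 CPM in wt and 24.5, 23.1 and 24.03 CPM in hnRNP L deficient cells. These values did not overlap, but the adjusted p was 0.0581 (DESeq2 called it, with an adjusted p of 0.0123). *Espl1*, which encodes separase, and *Ube2c*, the ubiquitin-conjugating enzyme of the complex, had log2 fold changes of 0.13 and 0.12, with overlapping libraries.

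The chromosome structure genes *Top2a* and *Mki67* were not called, and both were lower on average in hnRNP L deficient cells. *Mki67*, the proliferation marker Ki-67, was at 1674, 1189 and 1554 CPM in wt and 1225, 1292 and 1236 CPM in hnRNP L deficient cells. Wt replicate 2 was below all hnRNP L deficient libraries and the other wt libraries were above them, and the log2 fold change was -0.23 (95% interval -0.54 to 0.07, adjusted p = 0.233). *Top2a*, topoisomerase II alpha, was at 1026, 890.3 and 938 CPM in wt and 853, 807 and 842 CPM in hnRNP L deficient cells, without overlap, with a log2 fold change of -0.19 (adjusted p = 0.145). Exons of *Top2a* and of *Foxm1* overlap other genes on the same strand, so their counts are less certain.

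The transcription factor genes *Mybl2* and *Foxm1*, whose products activate the other genes, had log2 fold changes on opposite sides of 0, and neither was called by edgeR with all 6 libraries. Without wt replicate 1 both were called (0.32 and -0.20 on the log2 scale, adjusted p = 0.0193 and 0.0446). That fit called 32.4% of all genes, and of the 6 fits that leave out a library it was the only 1 to call either gene. *Mybl2* was at 128, 108 and 117 CPM in wt and 135, 141 and 142 CPM in hnRNP L deficient cells, higher in every hnRNP L deficient library (log2 fold change 0.25, adjusted p = 0.0742). *Foxm1* was at 102, 113 and 109 CPM in wt and 94.2, 96.0 and 98.6 CPM in hnRNP L deficient cells, lower in every hnRNP L deficient library (log2 fold change -0.16, adjusted p = 0.129). Both had an unadjusted p under 0.05 (0.0194 and 0.0478), and DESeq2 gave adjusted p-values of 0.0391 and 0.132.

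Compared per length of exons, the levels in wt cells ranged from 5.75 CPM per kb for *Cdc25c* to 146 CPM per kb for *Mki67*. Next in order were *Ccna2* (119 CPM per kb), *Ccnb2* (118), *Cdc20* (114) and *Top2a* (106). Of these 5 genes in hnRNP L deficient cells, *Cdc20* was at 141 CPM per kb, *Mki67* at 124, *Ccna2* at 122, *Top2a* at 92.6 and *Ccnb2* at 89.1.

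Other genes of the pathway were read from 4 lists. Of 12 DREAM genes, which are genes of its subunits and *Dyrk1a*, a kinase that promotes its assembly, 1 rose and 3 fell (33.3% called, against 19.2% of all genes). *Rbl1* and *Rbl2*, which encode the pocket proteins p107 and p130, fell by 0.28 (SE 0.08) and 0.42 (SE 0.08) on the log2 scale. Of the genes for the dimerization partners of E2F, *Tfdp1* rose by 0.31 (SE 0.08) and *Tfdp2* fell by 0.44 (SE 0.10). *Rbl2* was at 59.1, 66.9 and 65.1 CPM in wt and 44.9, 49.3 and 48.4 CPM in hnRNP L deficient cells, and none of the 4 genes overlapped between groups. Without wt replicate 1 or without wt replicate 2, 2 of the 12 rose. Rises over all genes grew as well in these fits, from 1341 to 2312 and 1672.

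Of 60 further mitotic genes, 3 rose and 7 fell (16.7% called, against 19.2% of all genes), and their median log2 fold change was -0.11. *Cdc25a*, a phosphatase that also acts at the start of S phase, rose by 0.64 (SE 0.11) and the centrosomal kinase gene *Nek2* by 0.44 (SE 0.12). The third that rose was *Kif18b*, named in addition to the rule (0.34). *Kif15*, a spindle motor that works beside Eg5, fell by 0.54 (SE 0.07), *Aspm* by 0.45 and *Iqgap3* by 0.38. *Kif15* was at 214, 204 and 200.4 CPM in wt and 134, 146 and 146 CPM in hnRNP L deficient cells, with no overlap. Without wt replicate 2, 11 of the 60 fell, and with total counts 14 fell. Falls over all genes grew as well in these fits, from 1418 to 1855 and 1751.

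Of 30 S phase genes, 3 rose and 0 fell in edgeR with all 6 libraries (10% that rose, near the 9.32% of all genes), with 20 of 30 positive and a median log2 fold change of 0.11 (DESeq2 called 7 that rose and 0 that fell). The cyclin E1 gene *Ccne1* rose by 0.70 (SE 0.18), *Rrm2*, a subunit of ribonucleotide reductase, by 0.64 (SE 0.14), and the replicative helicase gene *Mcm5* by 0.26 (SE 0.07). *Rrm2* was at 435, 355 and 302 CPM in wt and 520.3, 595 and 592 CPM in hnRNP L deficient cells, and all hnRNP L deficient libraries were above wt. Without wt replicate 1, 9 of the 30 rose and 1 fell. Calls over all genes grew as well, to 2312 that rose and 2479 that fell of 14766 without wt replicate 1, and to 29.9% called by DESeq2.

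The list of p53 targets linked to arrest held 16 genes, among them *Gtse1*. Of these 14 were tested, 9 rose and 1 fell (71.4% called, against 19.2% of all genes), and the median log2 fold change was 0.92. *Plk2*, a Polo kinase induced by stress, was at 0.504, 0.0667 and 0.0413 CPM in wt and 12.9 to 17.2 CPM in hnRNP L deficient cells, and the wt level rests on few reads. *Trp53inp1* rose by 2.76 (SE 0.42), *Zmat3* by 2.67 (SE 0.21), *Plk3* by 1.90 (SE 0.27) and *Ccng1*, which encodes cyclin G1, by 1.45 (SE 0.12). *Sesn1*, named after its values were seen as the single gene that fell, was at 49.3, 52.0 and 49.1 CPM in wt and 30.7, 32.3 and 26.8 CPM in hnRNP L deficient cells. This list was assembled with earlier results of these data known, so its count is no independent evidence of a direction. As for the 42 genes, few calls in these 4 lists were left without wt replicate 3 (0 genes) or without hnRNP L deficient replicate 1, 2 or 3 (3, 1 and 1 p53 targets, 0 others).

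**Figure D4:**
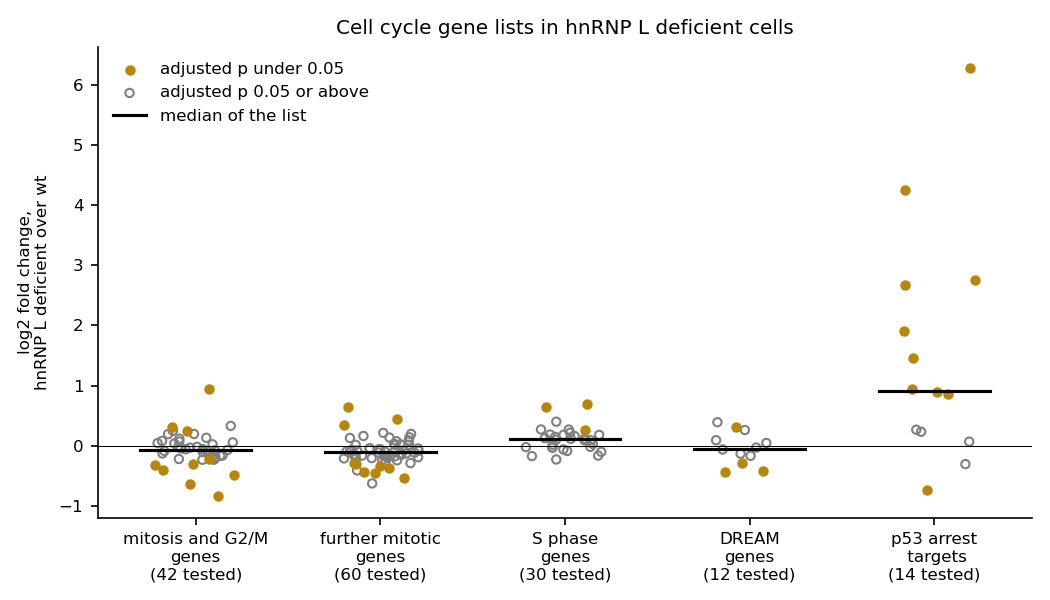
Log2 fold change of hnRNP L deficient over wt for each tested gene of the 42 mitosis and G2/M genes and of 4 other lists, with filled points for an adjusted p under 0.05 and a bar at each median. The medians are -0.07, -0.11, 0.11, -0.05 and 0.92 from left to right, and only the p53 targets, which include *Gtse1*, reach beyond 2-fold.

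CHR letters were present in 59.6% of the further mitotic genes with a window (28 of 47), 25.0% of the S phase genes (6 of 24), 44.4% of the DREAM genes (4 of 9) and 0 of 13 p53 targets. The p53 half-site was present in 6 of those 13 (46.2%).

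Because hnRNP L acts in splicing, the use of exon bins was compared within each of the 42 genes. Exon bins are the pieces into which exons are divided at the borders of annotated transcripts, and their counts were used for all 3 wt embryos and for hnRNP L deficient replicates 2 and 3, which makes 5 libraries. Of 936 bins tested in the 42 genes, 0 changed in use relative to the rest of the gene at an adjusted p under 0.05 with edgeR's diffSpliceDGE, against 51 of 176996 bins over all genes (0.0288%). At an unadjusted p under 0.05 there were 8 bins (0.855%, against 1.03% of all bins), and limma's diffSplice called 1 bin (0.107%, near the 0.123% of all bins that it called). Since diffSpliceDGE gave so few small p-values over all bins, the count of 0 does not show that use was unchanged. Of 834 bins that averaged 100 reads or more, 828 differed in use by less than 0.5 on the log2 scale.

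The 5 bins with the smallest p-values lay in *Tpx2*, *Nuf2*, *Mad2l1*, *Top2a* and *Hmmr*. Bin 31 of *Tpx2* was at 6.62, 8.90 and 6.30 CPM in wt and 4.42 and 4.56 CPM in hnRNP L deficient cells, a change in use of -0.73 on the log2 scale (unadjusted p = 0.00467). Bin 12 of *Mad2l1* was at 14.9, 16.02 and 13.0 CPM in wt and 9.09 and 9.16 CPM in hnRNP L deficient cells, a change of -0.64 (unadjusted p = 0.00875), and was the bin called by limma (-0.73, adjusted p = 0.0211). By diffSpliceDGE the adjusted p of both bins was 0.999998. Both bins were lower in each hnRNP L deficient library than in any wt library, while the gene counts of *Tpx2* and *Mad2l1* overlapped between groups. As the bins were picked by their small p-values, this lack of overlap is no separate support for a change in use. Bin 1 of *Nuf2*, bin 19 of *Top2a* and bin 12 of *Hmmr* held means of 18.8, 27.4 and 76.0 reads and changed in use by 1.92, 1.53 and 1.42 on the log2 scale. The *Top2a* bin is in a unit merged with another gene.

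The changes of *Gtse1* and *Nusap1* ran along both genes. In *Gtse1*, 11 of 12 bins tested were higher in both hnRNP L deficient libraries than in all wt libraries, and the log2 ratio of levels ranged from 0.49 to 1.08 over the 12 bins. In *Nusap1*, 13 of 16 bins tested were lower without overlap, and these ratios ranged from -0.94 to -0.58 over the 13 bins that averaged 100 reads or more. In *Ccnb2* all 9 bins tested were lower without overlap. The share of bins without overlap over all genes was not computed. The bin counts come from the same embryos as the gene counts, so they are not separate evidence of these changes.

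**Figure D5:**
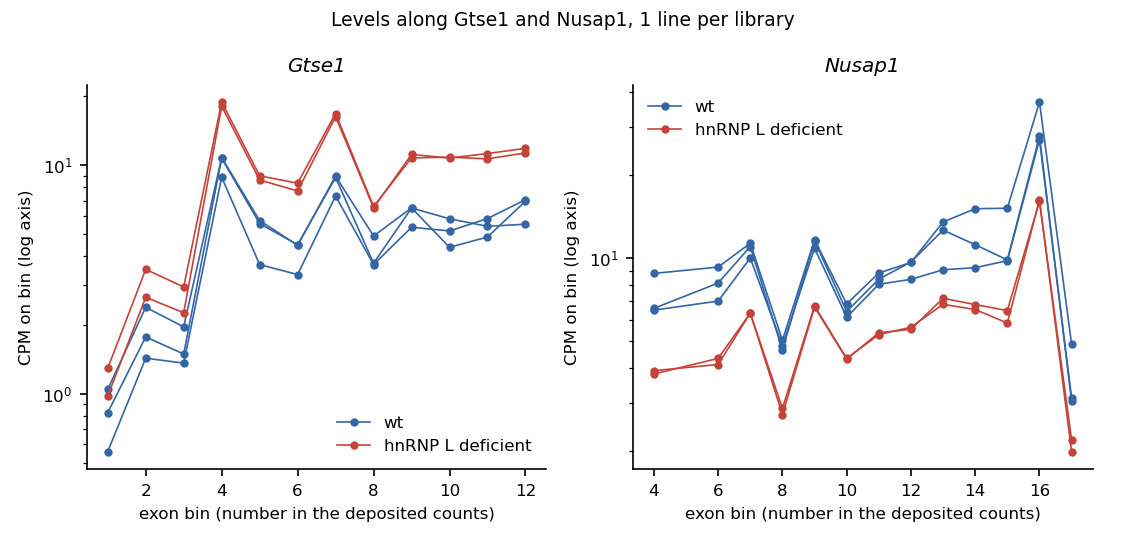
Level in CPM (log axis) on each exon bin that averaged 100 reads or more along *Gtse1* (left) and *Nusap1* (right), numbered as in the deposited counts, with 1 line for each of 3 wt and 2 hnRNP L deficient libraries. The hnRNP L deficient lines run above wt along *Gtse1*, apart from the first bin where 1 of them lies within the wt range, and below wt along *Nusap1*.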

How the data were processed

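Poly(A) RNA of sorted Lin-cKit+ FL cells from 6 embryos was sequenced with a stranded kit. The authors aligned reads to GRCm38 with TopHat2 2.0.10, and per the submitters' processing notes and methods counted them with HTSeq on Ensembl genes and with the DEXSeq script on exon bins. The deposited counts are not normalized. The strand option and the Ensembl release are not given in the sources used here. Of all reads listed, 46.7% to 53.3% name no gene (not unique, ambiguous or outside genes) and were left out.

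Gene counts were normalized by TMM and tested with edgeR 4.0.16 (R 4.3.3) by the robust quasi-likelihood test after its default filter, 3 wt against 3 hnRNP L deficient libraries, with Benjamini-Hochberg adjustment over 14396 genes. SE is the log2 fold change over the square root of F, and 95% intervals use the t distribution of the test. At this depth 3 reads correspond to 0.0402 to 0.0540 CPM. For exon bins averaging 10 reads or more, diffSpliceDGE was run on 5 libraries. Bins of the first hnRNP L deficient replicate were not used here. The gene and exon bin tests were run first on simulated counts with known changes.

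The 42 genes, the lists and the rule for named genes (all 42, *Hnrnpl*, *Trp53*, *Cdkn1a*, and at most 6 called genes per list by size of change, with a mean of at least 1 CPM) were chosen with earlier results of these data known. Alternatives were DESeq2 1.42.0, limma 3.58.1 with voom, other scalings and filters, and leaving out each library. A called gene of a list that the rule would name is not reported here. No set test was run.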

Additional observations from a re-analysis of the deposited data

How the results depend on the processing

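With DESeq2, 6 of the 42 genes rose and 8 fell, and over all genes 2064 rose and 2236 fell. In the other lists 2 DREAM genes and 7 S phase genes then rose. With limma voom and sample weights 6 of the 42 rose and 10 fell (all genes 2576 and 2774). With total counts 1 rose, 11 fell, 14 further mitotic genes and 1 S phase gene fell, and the 42 genes had a median of -0.14 on the log2 scale (all genes 1066 and 1751). Without the expression filter 2 rose and 4 fell (12.2% of all genes called). Median-of-ratios and upper-quartile factors gave 2 and 6, and 2 and 7 (18.9% and 18.7% of all genes called). For exon bins, limma diffSplice called 1 bin, and 1 bin passed an unadjusted p under 0.01 with a change over 2-fold.

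Leaving out each library in turn gave 0 to 5 genes that rose and 0 to 10 that fell of the 42, with a median of -0.084 to -0.026, and 5 to 2312 and 0 to 2479 of all genes. The ranges were 0 to 2 rises and 0 to 3 falls for DREAM genes, 0 to 3 and 0 to 11 for further mitotic genes, 0 to 9 and 0 to 1 for S phase genes, and 0 to 10 and 0 to 1 for p53 targets. On leaving out each of the 5 libraries with bin counts, diffSpliceDGE called 0 bins of the 42 genes and 3 to 158 bins of all genes. With 2 libraries in a group, the cause of the lost calls was not tested.

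Of the 42 genes, 11 changed sign in at least 1 alternative fit, with 20 such values in all, none of them called. These were *Ccna2* (-0.033), *Birc5* (-0.015), *Kif20a* (-0.027), *Tpx2* (-0.0016) and *Prc1* (-0.047) with total counts, *Bub1* (0.0046) without the filter, and *Bub1* (0.0088), *Mad2l1* (0.010) and *Kif20a* (-0.033) with limma voom. On leaving out a library, log2 fold changes ranged from -0.042 to 0.096 for *Ccna2*, -0.0039 to 0.21 for *Ccnb1*, -0.065 to 0.058 for *Bub1*, -0.071 to 0.041 for *Mad2l1*, -0.040 to 0.015 for *Incenp*, -0.034 to 0.091 for *Kif20a*, -0.091 to 0.0032 for *Kif23*, -0.042 to 0.095 for *Prc1* and -0.20 to 0.13 for *Hmmr*. Total counts moved the median of all genes by -0.07.

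No paired analysis was possible because the embryo numbers in the labels share a first part between groups in 1 case only (wt replicate 1 and hnRNP L deficient replicate 1). The first parts for the other 4 embryos each occur in 1 group, so a fit with the first part as a block would take the genotype difference from this pair alone. In this pair of libraries alone the 42 genes had a median of -0.12 on the log2 scale, with no test.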
